A study of Mus musculus with 24 samples.

Results

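The clustered protocadherins are cell surface proteins of the cadherin superfamily, encoded in 3 neighbouring gene clusters called Pcdha, Pcdhb and Pcdhg. Their members were taken as every row of the expression tables whose gene symbol begins with Pcdha, Pcdhg, or Pcdhb followed by a digit. This gave 59 of 24340 genes, with 15 in Pcdha, 22 in Pcdhb and 22 in Pcdhg, and all 59 reached an FPKM (fragments per kilobase of transcript, scaled to the mapped fragments of the library) of at least 0.1 in some group. The lowest member just inside that limit was Pcdhb1, at 0.116 FPKM in WT-vehicle, 0.173 in R6/1-vehicle, 0.0867 in WT-RGFP109 and 0.120 among R6/1-RGFP109 mice, and no member lay outside it.

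RNA was taken from the striatum of 24 male mice. R6/1 mice carry a transgene with exon 1 of human HTT and an expanded CAG repeat, driven by the human HTT promoter, and are a model of Huntington's disease on a C57BL/6J background, with wild type littermates as controls. Mice received RGFP109, an inhibitor of the histone deacetylases HDAC1 and HDAC3, at 30 mg per kg body weight by intraperitoneal injection, or vehicle (dimethyl sulfoxide in saline), 5 times a week for 3 weeks from 11 to 14 weeks of age, and tissue was collected 18 h after the last dose at 14 to 17 weeks. The 4 groups were WT-vehicle (5 mice), R6/1-vehicle (6 mice), WT-RGFP109 (6 mice) and R6/1-RGFP109 (7 mice).

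Each neuron is known to express its own small set of clustered protocadherins, which bind the same set on a neighbouring membrane and let the neurites of 1 cell recognise and avoid each other. Most promoters of the clusters are chosen at random in each cell through DNA methylation, the insulator protein CTCF and cohesin, whereas the C-type genes at the ends of Pcdha and Pcdhg are expressed more evenly across neurons. In Pcdha and Pcdhg, each gene has its own large first exon, which encodes the extracellular cadherin repeats and the membrane span, spliced to constant exons that encode a shared cytoplasmic end, whereas each Pcdhb gene is a single exon with no shared end.

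All 59 members are listed at 1 joint locus, chr18:36930285-37841872 in mm10, a stretch of 911.588 kb. Along it, the gene models ran from Pcdha1 at 36930285 through the Pcdhb genes, from Pcdhb1 at 37264998 to the end of Pcdhb22 at 37521419, to Pcdhgc5, which starts at 37819546. The models also show how far reads can be told apart. All 22 Pcdhb genes had 1 exon. Of the stretches of 51 bases (the read length) in their transcripts, a median of 96.0% (88.4% to 100%) occurred in no other of the 57 members with a model. Pcdha10 and Pcdha7-g had no model and were not searched, nor were genes outside the clusters. In the 13 Pcdha genes with a model of 4 exons, the constant exons made up 2860 bases, a median of 53.5% of the transcript, and in Pcdhg the shared part had a median of 44.8%. Stretches found in no other member with a model made up a median of 40.2% of a Pcdha and 55.2% of a Pcdhg transcript. For the first exon alone these shares were 85.6% and 99.3%. The Pcdha shares could be lower if Pcdha10 and Pcdha7-g were counted. Values of single Pcdha and Pcdhg genes are therefore uncertain, since reads of the constant exons had to be divided among the members, and this touches Pcdhb least. The authors' tables marked Pcdha7, Pcdha8 and Pcdhb1 as too low to test in 6 of 6 tables, and Pcdha4 in 3.

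The tables give 1 FPKM value per group over all mice of that group. No spread between mice could be computed, no difference below has a replicate check or a p-value, and higher and lower describe the group values only. Ratios are log2((FPKM + 0.1)/(FPKM + 0.1)) within 1 table, and a gene is called past the fold limit where the ratio is above 0.5 or below -0.5. Levels are means over the 3 tables that hold a group, which differ by a common factor of up to 3.92%, whereas ratios and percentages of difference come from 1 table, so they can differ by a few percent. The main counts of members stand beside the share of all genes past the limit in the same comparison.

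Tissue markers moved with the groups. All 11 markers of striatal projection neurons were lower in R6/1 than in wild type mice in both arms, 8 of them past the fold limit, with a summed level of 3356 FPKM in WT-vehicle, 1341 in R6/1-vehicle, 3226 in WT-RGFP109 and 1206 among R6/1-RGFP109 mice. The 6 interneuron markers were likewise all past the limit and lower. The 8 choroid plexus markers summed to 1468, 638 and 318 FPKM in the first 3 of these groups and to 39.9 in R6/1-RGFP109. Most of each sum was Ttr, at 1428, 615, 302 and 30.8 FPKM in the same order. Over the 8 genes the median log2 ratio of RGFP109 to vehicle was -2.17 in R6/1 and -1.78 in wild type mice. Neocortical markers (10 genes) summed to 509.6 FPKM in WT-vehicle, 319.5 in R6/1-vehicle, 489.3 in WT-RGFP109 and 368.3 among R6/1-RGFP109 mice, and oligodendrocyte markers (6 genes) to 4457, 2495, 3464 and 2832. Astrocyte, microglia and endothelial markers (6 genes each) had median log2 ratios of R6/1 to wild type of -0.36, -0.28 and -0.28 with vehicle and -0.43, -0.27 and -0.22 with RGFP109. None of these markers was at 0. Their part in the results below was not tested, and in bulk tissue fewer cells of a type and less RNA per cell cannot be told apart.

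Expression was carried mainly by Pcdhg. In WT-vehicle striatum the summed FPKM was 224.04 for the 22 Pcdhg genes, 43.3 for the 22 Pcdhb genes and 28.6 for the 15 Pcdha genes, or 75.7%, 14.6% and 9.65% of all members. The 2 highest genes, Pcdhgc5 (52.6 FPKM) and Pcdhgc3 (37.5 FPKM), together held 40.2% of the Pcdhg sum. Behind them stood Pcdhga11 (12.03 FPKM), Pcdhac2 (11.7 FPKM), Pcdhga6 (11.6 FPKM) and Pcdhga7 (11.4 FPKM), which lay so close that their order carries little weight. Pcdhac2 alone made up 40.9% of the Pcdha sum. C-type genes thus held the highest place in both clusters that have them, but not evenly: Pcdhgc4, whose protein is known to be needed for the survival of cortical interneurons, had 5.49 FPKM and Pcdhac1 1.35 FPKM.

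Among the other Pcdha genes Pcdha12 was highest in WT-vehicle, at 3.23 FPKM, before Pcdha9 at 1.91, Pcdha5 at 1.75 and Pcdha3 at 1.57. In Pcdhb the 5 highest genes were Pcdhb17 (5.005 FPKM), Pcdhb20 (4.79 FPKM), Pcdhb9 (4.43 FPKM), Pcdhb7 (2.71 FPKM) and, by its mean over the groups, Pcdhb12 (2.42 FPKM). Within each cluster, level and place along the chromosome were weakly related, with Spearman's rho of 0.36 over 14 Pcdha, 0.39 over 22 Pcdhb and 0.23 over 22 Pcdhg genes (a description across neighbouring genes of the same libraries).

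**Figure D1:**
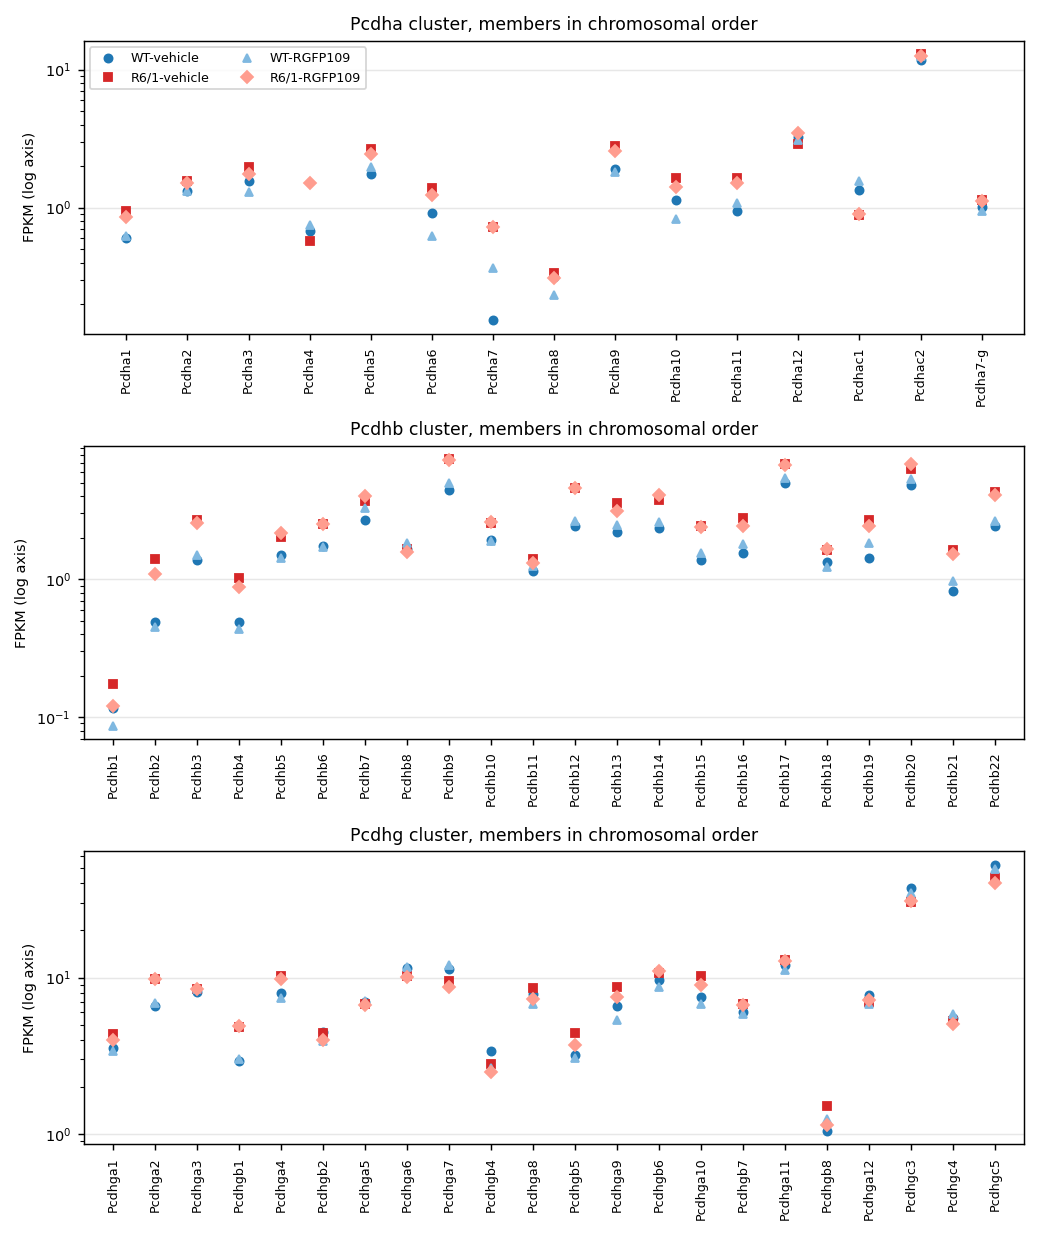
FPKM of each member on a log axis, 1 point for each of the 4 groups, with members in chromosomal order (Pcdha7-g, which has no position here, stands last). Both R6/1 points lie above both wild type points for 21 of 22 Pcdhb genes, beside 39% of all genes. Pcdhgc3 and Pcdhgc5 are the highest genes with both R6/1 points below, an order found in 32.3% of all genes.

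R6/1-vehicle was compared with WT-vehicle to describe the genotype difference without drug. Pcdhb genes were higher in R6/1 striatum almost throughout, the C-type Pcdhg genes and Pcdhac1 were lower, and the other Pcdhg genes went either way. Of 59 members 46 had a ratio above 0, 19 were higher past the fold limit and 1 was lower, with a median log2 ratio of 0.36. Over all 16972 genes in this comparison, 5.18% were higher and 12.6% lower past the limit, with a median of -0.02.

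For Pcdhb, 21 of 22 ratios were above 0 and 12 were past the limit, with a median log2 ratio of 0.64. The summed level was 43.3 FPKM in WT-vehicle and 67.1 FPKM in R6/1-vehicle, 51.6% higher within their table. Among the 6995 genes whose mean level lay in the range of the Pcdhb members (0.124 to 6.03 FPKM), 7.79% were higher past the limit. Other protein-coding genes with a single exon (370 tested) had a median of -0.002 and 12.7% past the limit on the higher side, and those in the Pcdhb range of levels (198) had 15.7%. The 12 of 22 in Pcdhb (54.5%) stand beside these shares as a description, with no test.

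Pcdhb2 had the largest ratio of the cluster. Its FPKM was 0.488 in WT-vehicle, 1.40 in R6/1-vehicle, 0.452 in WT-RGFP109 and 1.09 among R6/1-RGFP109 mice, and the log2 ratio of R6/1 to wild type was 1.32 with vehicle and 1.08 with RGFP109. Pcdhb4, of similar level, stood at 0.490, 1.02, 0.437 and 0.879 FPKM in the same order of groups, with ratios of 0.90 and 0.84. For both genes each R6/1 value lay above both wild type values, and 1 of the 6 tables listed each gene as too low to test.

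Genes of higher level showed the same order. Pcdhb12 had 2.42 FPKM in WT-vehicle and 4.59 in R6/1-vehicle, 2.64 in WT-RGFP109 and 4.60 among R6/1-RGFP109 mice, ratios of 0.87 and 0.74. For Pcdhb9, the most abundant Pcdhb gene by its mean over the groups, these values were 4.43, 7.40, 4.99 and 7.28 FPKM, with ratios of 0.70 and 0.51. Pcdhb22 followed with 2.44, 4.31, 2.64 and 4.09 FPKM, and Pcdhb3 with 1.38, 2.68, 1.51 and 2.57 FPKM. In these 4 genes both wild type groups lay close together and both R6/1 groups lay close together, whichever treatment was given.

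Pcdhb14, Pcdhb15 and Pcdhb21 were also past the limit in both arms. Pcdhb14 had log2 ratios of 0.62 with vehicle and 0.60 with RGFP109, Pcdhb15 of 0.74 and 0.58, and Pcdhb21 of 0.88 and 0.57. Past the limit with vehicle only were Pcdhb13 (0.66 against 0.29 with RGFP109), Pcdhb16 (0.77 against 0.39) and Pcdhb19 (0.83 against 0.36), and with RGFP109 only Pcdhb5 (0.37 with vehicle, 0.54 with RGFP109). Whether these arms differ was not tested. The other highly expressed members had smaller ratios, with 0.42 and 0.27 for Pcdhb17, 0.36 and 0.32 for Pcdhb20 and 0.40 and 0.26 for Pcdhb7. The low Pcdhb1 (0.31 and 0.22), Pcdhb6 (0.48 and 0.49), Pcdhb10 (0.35 and 0.40), Pcdhb11 (0.24 and 0.02) and Pcdhb18 (0.24 and 0.37) complete the genes above 0.

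A single Pcdhb gene stood apart. Pcdhb8 had 1.65 FPKM in WT-vehicle, 1.65 in R6/1-vehicle, 1.84 in WT-RGFP109 and 1.57 among R6/1-RGFP109 mice, ratios of -0.03 and -0.25. It was chosen for mention after its values were seen. Place in the cluster did not follow the size of the Pcdhb ratio across the 22 genes (Spearman's rho 0.01 with vehicle, -0.11 with RGFP109). Neither did the share of stretches found in no other member with a model (0.09 and 0.06).

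**Figure D2:**
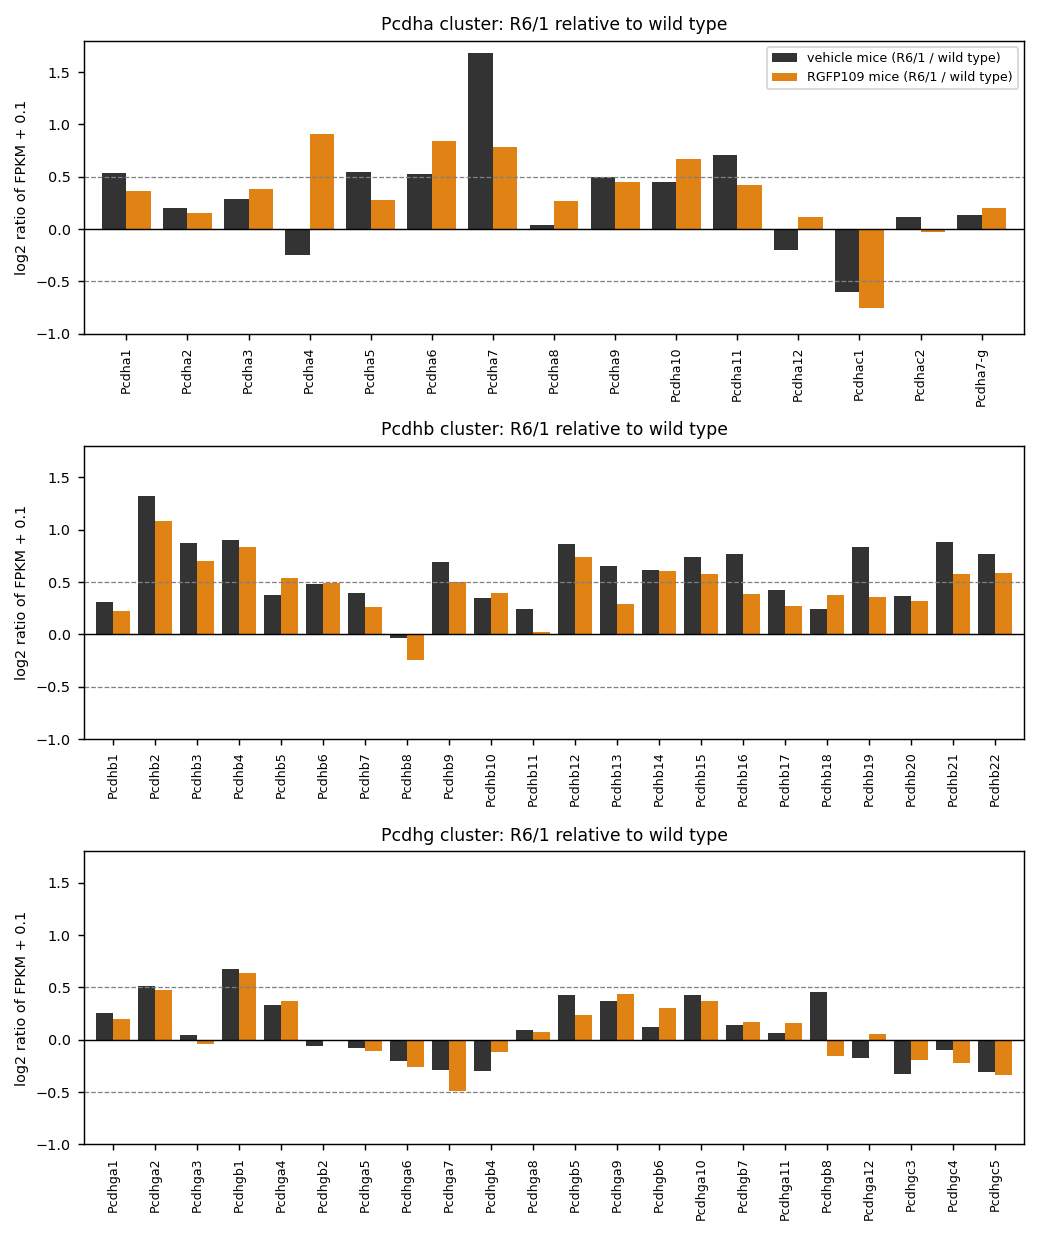
Log2 ratio of R6/1 to wild type for each member in chromosomal order, in mice given vehicle (dark bars) and mice given RGFP109 (orange bars), with dashed lines at the fold limit of 0.5 and -0.5. Bars of Pcdhb point up except Pcdhb8, and the Pcdhg bars change side along the cluster, ending below 0 at the 3 C-type genes.

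Pcdha showed a smaller version of this difference among its alternate genes, as the members other than the C-type are called. Of 15 Pcdha members 12 had a ratio above 0 with vehicle, 5 (33.3%) were higher past the limit and 1 (6.67%) was lower, beside 5.18% and 12.6% of all genes, with a median log2 ratio of 0.29. Leaving aside the C-type pair, the summed level of 13 genes was 15.5 FPKM in WT-vehicle, 20.2 in R6/1-vehicle, 15.0 in WT-RGFP109 and 20.5 among R6/1-RGFP109 mice, and within the single table of each comparison it was higher in R6/1 by 27.4% with vehicle and by 33.7% with RGFP109.

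Pcdha7 had the largest ratio of all members with vehicle, but at a level too low to test in the authors' tables. It was at 0.152 FPKM in WT-vehicle, 0.723 in R6/1-vehicle, 0.368 in WT-RGFP109 and 0.722 among R6/1-RGFP109 mice, so both R6/1 values were alike while the wild type values differed from each other more than 2-fold. Ratios were 1.68 with vehicle and 0.79 with RGFP109. Pcdha11 followed with vehicle at 0.71 (0.42 with RGFP109). Pcdha1 and Pcdha5 were at 0.54 each with vehicle, and 0.37 and 0.28 with RGFP109. Pcdha6 was past the limit in both arms, at 0.53 and 0.84, and Pcdha10 with RGFP109, at 0.45 and 0.67. Pcdha9 lay at 0.50 and 0.45, just under the limit in both. Smaller ratios above 0 were those of Pcdha2 (0.20 and 0.16), Pcdha3 (0.29 and 0.38), Pcdha8 (0.04 and 0.27) and Pcdha7-g (0.13 and 0.20).

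Pcdha12, the highest of these genes, did not share the order. It had 3.23 FPKM in WT-vehicle, 2.87 in R6/1-vehicle, 3.12 in WT-RGFP109 and 3.47 among R6/1-RGFP109 mice. Pcdha4 was unlike the rest of the cluster, with 0.681, 0.572, 0.742 and 1.52 FPKM in the same order, so that the R6/1-RGFP109 value alone stood high. Its ratios of R6/1 to wild type were -0.24 with vehicle and 0.91 with RGFP109, and 3 of 6 tables listed it as too low to test.

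C-type genes were lower or near equal in R6/1 mice. Pcdhac1 was the only member lower past the limit, with 1.35 FPKM in WT-vehicle, 0.879 in R6/1-vehicle, 1.55 in WT-RGFP109 and 0.898 among R6/1-RGFP109 mice and log2 ratios of -0.60 and -0.75. Pcdhac2, known to be the main isoform of serotonergic neurons and the dominant Pcdha gene here, had 11.7, 13.0, 12.5 and 12.5 FPKM in the same order, with ratios of 0.12 and -0.03. Pcdhgc5 stood at 52.6 FPKM in WT-vehicle, 43.5 in R6/1-vehicle, 49.4 in WT-RGFP109 and 40.0 among R6/1-RGFP109 mice, ratios of -0.31 and -0.34. For Pcdhgc3 the values were 37.5, 30.5, 34.5 and 30.8 FPKM, with ratios of -0.33 and -0.19. Both R6/1 values lay below both wild type values for these 2 genes and for Pcdhac1. This also held for Pcdhgc4, which had ratios of -0.10 and -0.22. Over all 17264 genes this order held for 32.3%, so it is a common one.

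The 3 C-type Pcdhg genes together had 95.6 FPKM in WT-vehicle, 79.3 in R6/1-vehicle, 89.7 in WT-RGFP109 and 75.9 among R6/1-RGFP109 mice, and within the single table of each comparison the sum differed by -18.9% with vehicle and -17.3% with RGFP109. Pcdhb went from 14.6% of the FPKM of all members in WT-vehicle to 20.8% in R6/1-vehicle, and from 16.5% in WT-RGFP109 to 21.3% in R6/1-RGFP109. The C-type Pcdhg genes went from 32.3% to 24.6% and from 31.1% to 24.4%. Summed over all 59 members, R6/1 was 6.68% higher with vehicle and 5.40% higher with RGFP109, so the makeup of the family differed more than its total.

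**Figure D3:**
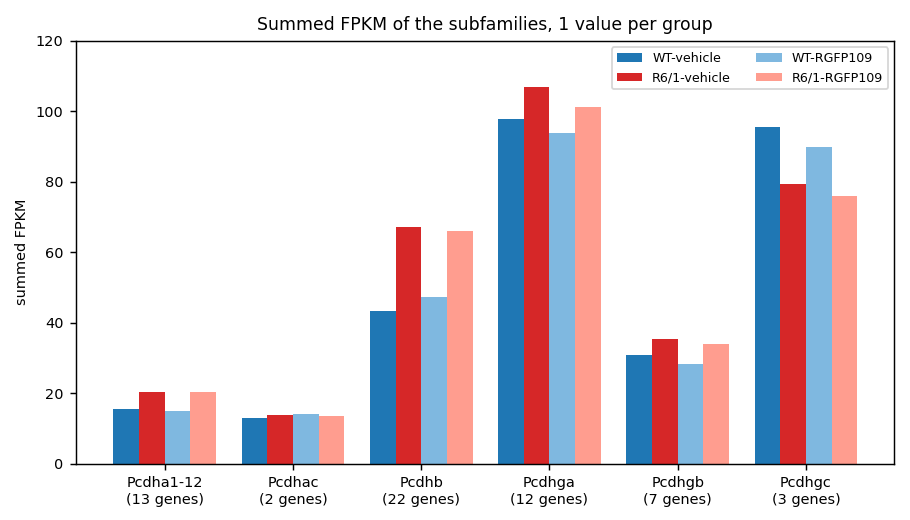
Summed FPKM of the 6 subfamilies in each group, 1 bar per group from 0 (the first set holds Pcdha1 to Pcdha12 with Pcdha7-g). Both R6/1 bars are above both wild type bars for Pcdha, Pcdhb, Pcdhga and Pcdhgb and below them for Pcdhgc, where they stand at 79.3 and 75.9 FPKM against 95.6 and 89.7.

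The remaining Pcdhg genes belong to the A and B subfamilies, which are interspersed along the chromosome and differ in the sequence of their first exons. Over the whole cluster 13 of 22 ratios were above 0 with vehicle and 2 (9.09%) were higher past the limit, near the 5.18% of all genes and the 7.79% of genes in the Pcdhb range of levels, and the median log2 ratio was 0.08. The sum differed by -3.27% in R6/1. This rested on Pcdhgc5, without which the log2 ratio of the Pcdhg sum turned from -0.05 to 0.02 with vehicle and from -0.04 to 0.04 with RGFP109. Both genes past the limit lie near the start of the cluster. Pcdhgb1 had 2.94 FPKM in WT-vehicle, 4.86 in R6/1-vehicle, 3.04 in WT-RGFP109 and 4.90 among R6/1-RGFP109 mice, with ratios of 0.67 and 0.64. Pcdhga2 had 6.62, 9.72, 6.88 and 9.83 FPKM, with ratios of 0.51 and 0.48. Their neighbours Pcdhga1 (0.26 and 0.20) and Pcdhga4 (0.33 and 0.37) were also above 0, and Pcdhga3 between them was near it (0.04 and -0.04).

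From Pcdhgb2 to Pcdhgb4, 5 neighbouring genes had ratios below 0 in both arms, though Pcdhgb2 (-0.06 and -0.01) and Pcdhga5 (-0.07 and -0.11) were near it. Pcdhga7 stood at 11.4 FPKM in WT-vehicle, 9.52 in R6/1-vehicle, 11.96 in WT-RGFP109 and 8.69 among R6/1-RGFP109 mice, ratios of -0.29 and -0.49, and Pcdhga6 beside it at 11.6, 10.3, 11.7 and 10.0 FPKM. Pcdhgb4 had ratios of -0.30 and -0.12. Further along, Pcdhgb5 was again higher, at 0.42 with vehicle and 0.23 with RGFP109, as were Pcdhga9 (0.37 and 0.43) and Pcdhga10 (0.42 and 0.37), while Pcdhga11 was near 0 with vehicle, at 0.07. Pcdhgb8, which RefSeq lists as a transcribed pseudogene, had 1.05 FPKM in WT-vehicle and 1.51 in R6/1-vehicle but 1.25 in WT-RGFP109 and 1.14 in R6/1-RGFP109, ratios of 0.46 and -0.16. The other 4 genes (Pcdhga8, Pcdhga12, Pcdhgb6 and Pcdhgb7) had ratios from -0.17 to 0.31.

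The same genotype comparison in mice given RGFP109 used none of the mice of the vehicle comparison. Here 46 of 59 members had a ratio above 0, 15 were higher past the limit and 1 was lower, with a median log2 ratio of 0.31, where 4.79% of 16954 genes were higher and 10.8% lower, with a median of 0.00. Pcdhb had 21 of 22 ratios above 0 and 10 past the limit, with a median of 0.44 and a sum 36.2% higher, against 8.15% past the limit among 7046 genes in its range of levels, 7.52% among 359 other single-exon genes and 11.1% among 199 of these in its range of levels. With a pseudocount of 1 FPKM in place of 0.1, 2 of 22 Pcdhb genes (9.09%) remained past the limit here and 10 of 22 (45.5%) in the vehicle comparison. At that pseudocount 1.71% of 6956 genes in the Pcdhb range of levels were higher past the limit here and 2.01% in the vehicle comparison. Pcdha had a median of 0.37 with 4 genes higher past the limit, and Pcdhg a median of 0.06 with 1.

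The sign of the ratio was shared between the arms by 53 of 59 members (89.8%), against 80.4% of 16662 genes. All 22 Pcdhb genes, 19 of 22 Pcdhg genes and 12 of 15 Pcdha genes kept their sign. In both arms 12 members (20.3%) were higher past the limit, against 1.99% of all genes, or 3.15% of the genes in the Pcdhb range of levels. A pseudocount of 1 FPKM, an alternative added after the values were seen, left 3 of 59 (Pcdhb2, Pcdhb12 and Pcdhgb1), against 0.870% and 0.920%. The 12 were Pcdhb2, Pcdhb3, Pcdhb4, Pcdhb9, Pcdhb12, Pcdhb14, Pcdhb15, Pcdhb21, Pcdhb22, Pcdhgb1, Pcdha6 and Pcdha7. The size of the ratio also ran together, with Pearson's r of 0.86 in Pcdhb, 0.83 in Pcdhg and 0.58 in Pcdha, as a description across genes that come from the same libraries and, in Pcdha and Pcdhg, share constant exons. For 18 of 22 Pcdhb genes the ratio was larger with vehicle than with RGFP109, beside 7922 of all 16662 genes and 3385 of the 6956 in the Pcdhb range of levels, a difference between arms that was not tested.

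**Figure D4:**
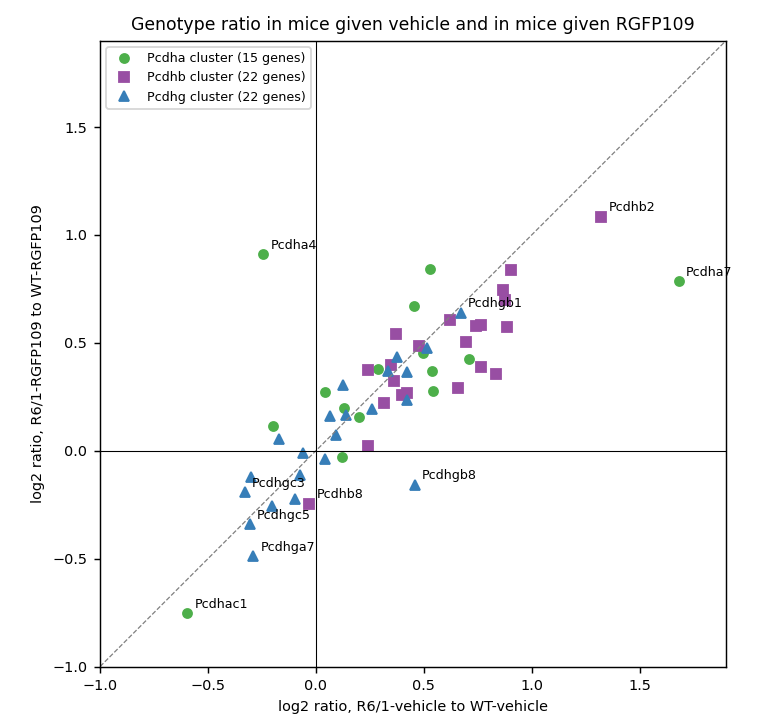
Log2 ratio of R6/1 to wild type in mice given RGFP109 against the ratio in mice given vehicle, 1 point per member, with the line of equal ratios dashed. Pcdhb squares lie in the upper right except Pcdhb8, most of them under the line, Pcdhac1 is at the lower left, and Pcdha4 lies far from the line at -0.24 and 0.91.

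Taking all 4 group levels, both R6/1 values exceeded both wild type values for 21 of 22 Pcdhb, 11 of 15 Pcdha and 10 of 22 Pcdhg genes. Pcdhac2 is among these by 12.50 against 12.48 FPKM, less than the tables differ, and its ratio within the table was -0.03 with RGFP109. Over all 17264 genes this held for 39%, and for 32.8% of those in the Pcdhb range of levels. Both R6/1 values were below both wild type values for 7 members, all in Pcdhg but for Pcdhac1, against 32.3% of all genes. They were Pcdhga5, Pcdhga6, Pcdhga7, Pcdhgc3, Pcdhgc4, Pcdhgc5 and Pcdhac1.

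RGFP109 was compared with vehicle in R6/1 mice to ask whether HDAC1 and HDAC3 inhibition moved the R6/1 levels. Of 59 members 1 was higher past the limit and 0 were lower, where 2.24% of 16840 genes were higher and 2.6% lower. That gene was Pcdha4, at 0.572 FPKM with vehicle and 1.52 with RGFP109, a log2 ratio of 1.27. The median ratio was -0.08 in Pcdha, -0.05 in Pcdhb and -0.06 in Pcdhg, and the Pcdhb sum of 67.1 FPKM in R6/1-vehicle stood beside 66.1 FPKM in R6/1-RGFP109. Most ratios were small but below 0, with 45 of 59 members below and 14 (23.7%) above it. Ratios above 0 made up 50.6% of all genes and 47.3% of those in the Pcdhb range of levels, and this difference was not tested. After Pcdha4, the highest ratios among members with at least 0.5 FPKM in either group were 0.26 for Pcdha12 and 0.13 for Pcdhb14, and the lowest were -0.38 for Pcdhgb8, -0.33 for Pcdhb2 and -0.26 for Pcdhgb5. Pcdhb1, below that level, had -0.31. Choroid plexus markers were lower past the limit in 8 of 8 genes in this comparison, and their part in it was not tested.

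In wild type mice RGFP109 likewise left 1 member higher and 0 lower past the limit, with 2.73% and 4.11% of 16957 genes. The gene was Pcdha7, at a ratio of 0.88 between its 2 low values. Pcdhb had 15 of 22 ratios above 0, with a median of 0.12 and a sum 9.43% higher, led by Pcdhb19 (0.33) and Pcdhb7 (0.27), with Pcdhgb8 (0.23) next among all members. At the other end lay Pcdha6 at -0.49, Pcdha10 at -0.41 and Pcdhgb4 at -0.35. The Pcdhg sum differed with RGFP109 by -5.52% in wild type and by -5.07% in R6/1 mice. Between the genotypes, which share no mice, the sign of the treatment ratio was the same for 28 of 59 members (47.5%), against 50.5% of all genes, and for 7 of 22 in Pcdhb.

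**Figure D5:**
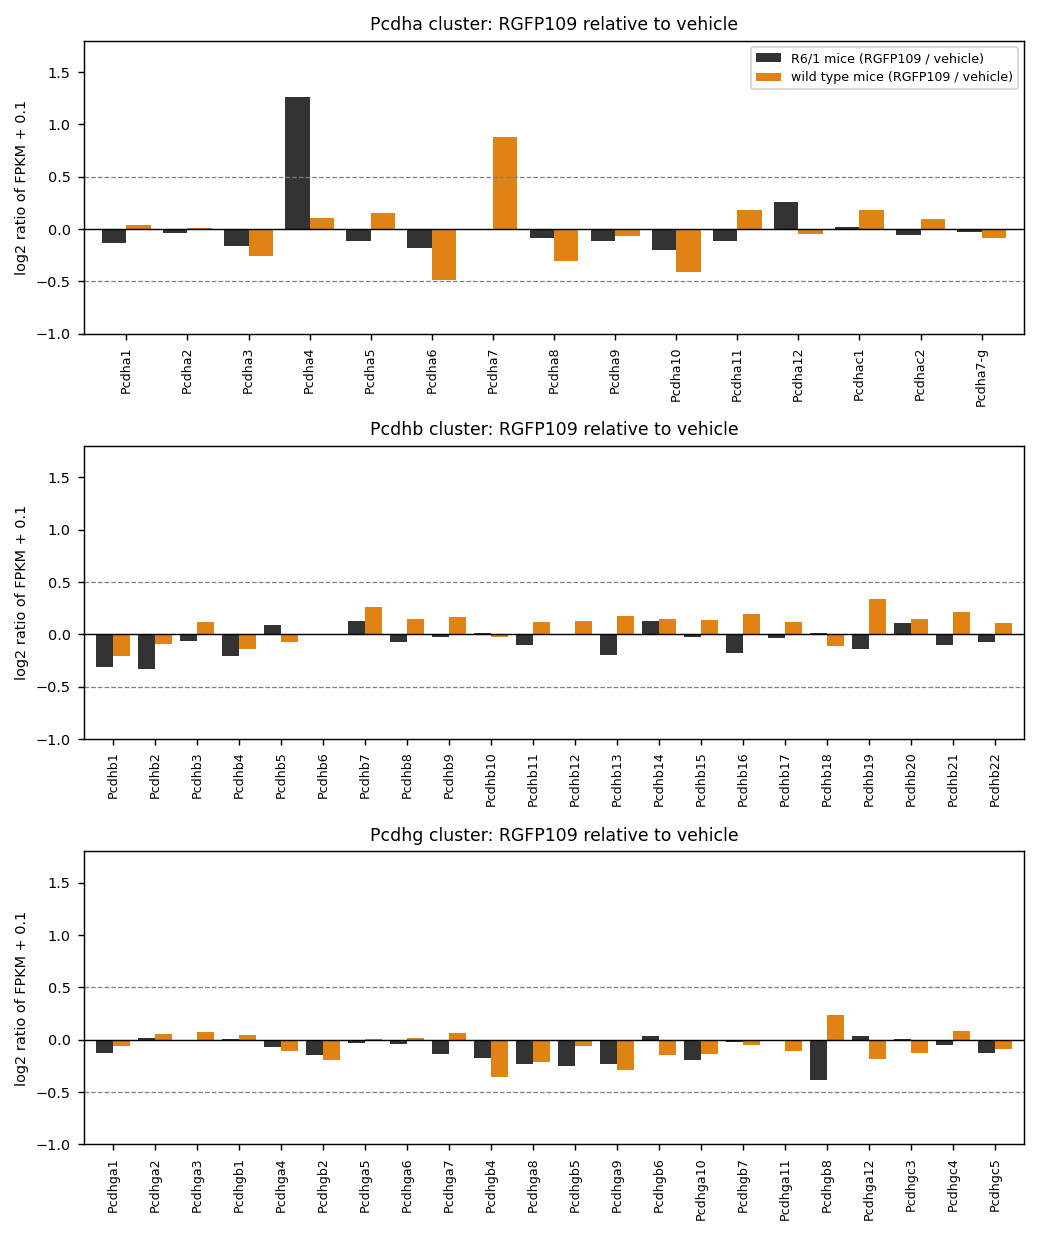
Log2 ratio of RGFP109 to vehicle for each member in chromosomal order, in R6/1 mice (dark bars) and wild type mice (orange bars), on the scale used for the genotype ratios, with dashed lines at 0.5 and -0.5. Only Pcdha4 in R6/1 mice and Pcdha7 in wild type mice pass a line.

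Protocadherins outside the clusters, which have their own cytoplasmic ends and lie elsewhere in the genome or beyond the cluster, were read beside the members. Of 12 listed, 11 reached the FPKM minimum. With vehicle 3 of 11 were higher in R6/1 past the limit and 0 lower, beside 5.18% and 12.6% of all genes, with a median ratio of 0.22. With RGFP109 2 were higher and 0 lower, beside 4.79% and 10.8% of all genes, with a median of 0.06. Pcdh20 had 3.07 FPKM in WT-vehicle, 5.29 in R6/1-vehicle, 2.99 in WT-RGFP109 and 4.96 among R6/1-RGFP109 mice. Pcdh19, whose human counterpart is mutated in an epilepsy that affects mainly females, had 3.25, 4.93, 2.96 and 4.65 FPKM. Pcdh11x had ratios of 0.57 and 0.31. RGFP109 left 0 of 11 past the limit in either genotype. Of all genes 2.24% were higher and 2.6% lower with RGFP109 in R6/1 mice, and 2.73% and 4.11% in wild type mice. A count of 0 in 11 is near these shares.

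Genes whose products act on the clusters were measured next. Of 21 insulator, cohesin and silencing genes 19 had a ratio above 0 in each genotype comparison and 0 were past the limit, with medians of 0.18 and 0.19. Of all genes 47.5% had a ratio above 0 with vehicle and 50.0% with RGFP109. Past the limit, 5.18% of all genes were higher and 12.6% lower with vehicle, and 4.79% and 10.8% with RGFP109. Ctcf, which anchors promoters and enhancers of the clusters, had 20.3 FPKM in WT-vehicle, 21.7 in R6/1-vehicle, 20.3 in WT-RGFP109 and 21.8 among R6/1-RGFP109 mice. Rad21, a cohesin subunit, had 38.1, 44.3, 38.2 and 44.6 FPKM, with ratios of 0.18 and 0.19. The 2 drug targets Hdac1 (3.48, 4.23, 3.05 and 3.97 FPKM) and Hdac3 (57.9, 59.9, 58.9 and 60.3 FPKM) stayed within the limit in every comparison. Of 20 partners and downstream signalling genes 0 passed it with vehicle and 1 (5%) with RGFP109, the receptor kinase gene Ret at -0.55. These counts stand beside the same shares of all genes.

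Ratios of the other genes around the clusters centred near 0. Within 500 kb of the outermost members 35 of 38 other genes reached the FPKM minimum, with median log2 ratios of R6/1 to wild type of -0.02 and -0.01. With vehicle 3 (8.57%) were higher and 3 (8.57%) lower past the limit, beside 5.18% and 12.6% of all genes. With RGFP109 1 (2.86%) was higher and 3 (8.57%) lower, beside 4.79% and 10.8%. Some of these calls lie near the FPKM minimum. Slc4a9, higher with vehicle, had 0.0784 FPKM in WT-vehicle and 0.158 in R6/1-vehicle. Slc25a2, lower with RGFP109, had 0.209 FPKM in WT-RGFP109 and 0.0981 in R6/1-RGFP109. Hbegf, a growth factor gene, was lower in both arms (-0.87 and -0.95), as was E230025N22Rik (-0.93 and -0.999). Gm37013 and Gm38666, listed with the same joint locus as the members, had ratios of 0.66 and 0.56 with vehicle and 0.13 and 0.15 with RGFP109. Vaultrc5 went from -1.10 with vehicle to 0.81 with RGFP109 at levels of 0.185 to 0.503 FPKM.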

How the data were processed

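Striatal RNA of 24 mice in 4 groups was sequenced as single-end reads of 51 bases. Per the labels and the methods of the study, the authors aligned reads to mm10 with STAR 2.5.0b and estimated expression with Cufflinks 2.2.1 (Cuffdiff). The authors deposited FPKM values (fragments per kilobase of transcript, scaled to the mapped fragments) in 6 tables, 1 for each pair of groups, with 1 value per group and gene over all mice of the group. Values of single mice, read counts and library sizes were not used here, so depth is unknown and neither an SD nor a test could be given. The tables also hold the authors' fold changes, test statistics, p-values, q-values and significance calls, which were not used. Their status column was read only as a sign of low counts. Strandedness of the counting is not given in the sources used here.

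A group's level was its mean FPKM over the 3 tables that hold it, which differ by a common factor of 3.17% to 3.92%. Ratios were taken within 1 table as log2((FPKM + 0.1)/(FPKM + 0.1)), which understates differences of low genes. The fold limit was an absolute log2 ratio above 0.5, and a gene entered a comparison with an FPKM of at least 0.1 in either group. Ratios were computed with Python 3.11.15, numpy 2.4.6 and pandas 2.3.3. Their arithmetic was checked by putting known ratios into genes of at least 1 FPKM, with no pseudocount and no noise. That check does not cover low genes. Gene models came from GENCODE and RefSeq.

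Members named were the 5 highest of each cluster, all C-type genes, those past the fold limit with an FPKM of at least 0.5, the 3 highest and 3 lowest ratios of each comparison and the member nearest the FPKM minimum. From the other lists, genes past the fold limit with an FPKM of at least 0.5 and Ctcf, Rad21, Hdac1 and Hdac3 were named. Slc4a9 and Slc25a2, which lie below that level, were named as examples of low genes. The members and the lists were chosen with earlier results of these data known. The comparisons with genes of like level and with single-exon genes were added after the values were seen.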

Additional observations from a re-analysis of the deposited data

How the results depend on the processing

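Of 252 recomputed values 214 kept within the tolerance (0.1 on the log2 scale, or 1.5 times a count), 38 moved and 0 reversed. The 214 include 36 values recomputed with no minimum FPKM. These could not move, since all 59 members reach the minimum of 0.1 FPKM. No paired analysis was possible because the tables hold 1 value per group, and leaving out replicates could not be run for the same reason. In the vehicle genotype comparison, a pseudocount of 1 FPKM gave a Pcdhb median of 0.45, with 1 Pcdha and 1 Pcdhg gene higher and 0 Pcdha genes lower, and a minimum of 1 FPKM left 3 Pcdha genes higher. A limit of 0.25 gave 8 Pcdha, 19 Pcdhb and 8 Pcdhg genes higher and 4 Pcdhg genes lower, and a limit of 1 gave 1, 1 and 0 higher and 0 Pcdha genes lower. With a pseudocount of 1 FPKM, 2.10% of 16662 genes were higher past 0.5 with vehicle and 1.64% with RGFP109. Shares of all genes under the other settings are not given here, so these counts and those below describe the members only. In the RGFP109 genotype comparison, a pseudocount of 1 gave medians of 0.20 in Pcdha and 0.31 in Pcdhb, with 1 and 2 genes higher and 0 Pcdha genes lower. Centring on all genes put 1 Pcdhg gene lower. A limit of 0.25 gave 10, 19 and 6 genes higher and 3 Pcdhg genes lower, a limit of 1 gave 0, 1 and 0 higher and 0 Pcdha genes lower, and the Pcdha sum without Pcdhac2 had a log2 ratio of 0.34. For RGFP109 in R6/1 mice a limit of 0.25 gave 2 Pcdha genes higher and 2 Pcdhb and 2 Pcdhg genes lower. For RGFP109 in wild type mice the Pcdha gene past the limit was lost (0) with a pseudocount of 1, a minimum of 1 FPKM or a limit of 1, a pseudocount of 0.01 put 1 Pcdha gene lower, and a limit of 0.25 gave 2 Pcdhb genes higher and 4 Pcdha and 2 Pcdhg genes lower. Of the 38 moved values 14 came with a limit of 0.25, 10 with a pseudocount of 1 FPKM and 9 with a limit of 1. The causes of these moves were not tested. Depth is unknown, so the limit it sets on low members such as Pcdha7, Pcdha4 and Pcdhb1 could not be given.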
